A study of Mus musculus with 26 samples.

Results

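The comparison described here is that of Il10-/- lungs after 72 hr of ozone (O3) with Il10-/- lungs kept in filtered air, on 7 of the 26 arrays of the series: 3 arrays of O3 for 72 hr and 4 arrays of air, taken by their titles. Il10-/- mice, a strain that the labels write as B6.129P2-Il10tmlCgn/J, were males of 6 to 8 weeks from Jackson, which lack a working Il10 gene in every cell from birth. They breathed O3 at 0.3 ppm for 72 hr, or filtered air for 24 hr (2 arrays) or 48 hr (2 arrays), and RNA from the left lung was measured on Affymetrix mouse expression arrays. Air of 24 and 48 hr was pooled, and no array of air for 72 hr was analysed here, so that 72 hr in the chamber and O3 cannot be told apart. The design text calls the replicates biological, but no label gives the animal of an array, and p-values measure the spread between arrays. Air and O3 arrays of wild-type Il10+/+ (C57BL/6) mice of the same age, sex and supplier (4 of air, 3 of O3 for 72 hr) and 3 arrays of Il10-/- mice after 48 hr of O3 were used only to ask where the 72-hr change in Il10-/- lungs differed.

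O3 is a reactive gas that damages the cells lining the small airways and the openings of the alveoli. The lung answers such injury with an influx of neutrophils and macrophages, and with division of surviving epithelial cells that cover the damaged surface. The cytokine IL-10 restrains inflammation through its receptor and the transcription factor STAT3, and mice without it are used to ask what that brake does in an inflamed tissue. Values below are log2 expression after Robust Multichip Average (RMA) processing, a scale on which a difference of 1 is a doubling. A gene passed the test where limma, fitted over all groups, gave a Benjamini-Hochberg adjusted p under 0.05.

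The Il10 probe set did not behave as a measure of Il10 loss. It had log2 values of 7.02, 7.11, and 6.93 on the 3 O3 arrays of Il10-/- mice, against 6.59 and 6.29 on the air arrays of 24 hr and 3.87 and 6.72 on the air arrays of 48 hr. All Il10+/+ arrays lay between 3.92 and 4.25. What part of the gene is probed is not given in the files, so the probe set checks nothing about the deletion. The change after O3 was 1.15, with the air array at 3.87 included, and did not pass. It did set apart the library labelled Il10-/- air 48 hr replicate 1, at 3.87. Outside that library, 4 genes separated the other 12 Il10-/- arrays from the 13 Il10+/+ arrays by at least 0.5 log2: Il10, Ctse and Stk25 on chromosome 1 and Nnt on chromosome 13. At all 4 the library lay on the Il10+/+ side. Ctse, for example, was 5.55 there, against 7.88 to 13.04 on the other Il10-/- arrays and 5.10 to 6.33 on Il10+/+ arrays. It was also the lowest air array at Nnt, Pam and Wdfy1, and the changes of Ctse, Nnt, Pam and Wdfy1 after O3, of 1.09, 0.18, 0.15, and 0.20, did not pass. These changes include that library, and without it those of Nnt, Pam and Wdfy1 were negative. The library's label was kept, and counts are given with and without it. A letter c of unstated meaning ends the source name of 3 of the 4 air arrays, this library among them, and of none of the 3 O3 arrays.

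In the lungs of Il10-/- mice, more genes were higher than lower after 72 hr of O3. Of 12394 genes, 527 were higher than in air (4.25% of genes tested) and 201 were lower (1.62% of genes tested), 5.87% in all. Counts of list members below are to be read beside these shares. Without the doubted air library 322 were higher (2.6%) and 118 lower (0.952%), 3.55% in all, and 319 and 100 of these were among the genes above. Left out in turn, O3 replicate 3 lowered the counts to 237 and 36, O3 replicate 2 to 307 and 122, and air 24 hr replicate 1 to 380 and 133. Changes over 2-fold were found for 107 of the higher and 10 of the lower genes, and changes over 4-fold for 19 and 2. The median change of all genes was -0.03. In 516 of the higher (4.16% of all genes) and 198 of the lower genes (1.6%) the O3 and air arrays did not overlap. Nearly all genes that passed were thus without overlap, so a lack of overlap at such a gene below is a description only. The count rested on how the spread was estimated. With only these 7 arrays in the fit 550 genes were higher (4.44%) and 246 lower (1.98%), 6.42% in all, and with all 26 arrays, which adds a divergent array of Il10-/- mice at 24 hr of O3, 40 (0.323%) and 7 (0.0565%) passed, 0.379% in all and all among the 728 above.

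**Figure D1:**
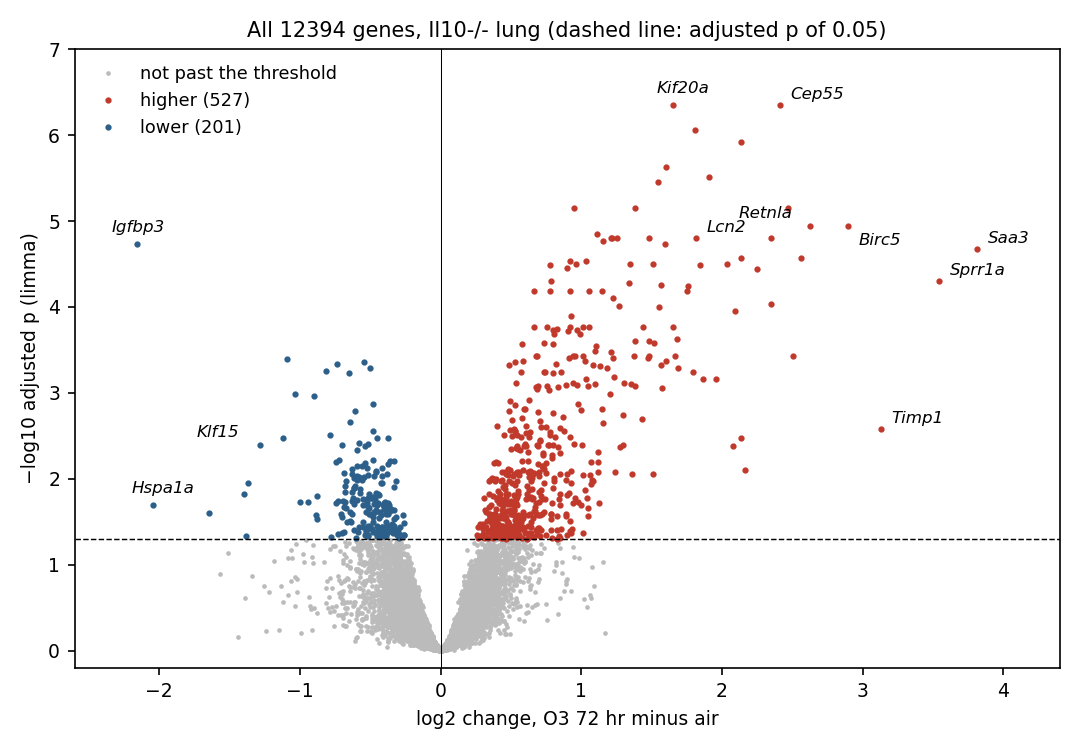
Log2 change of each of 12394 genes in Il10-/- lungs, O3 for 72 hr minus air (x axis), against the −log10 of the adjusted p from limma (y axis). Red points are the 527 genes that were higher, blue points the 201 that were lower and grey points the genes that did not pass, and Saa3, Sprr1a and Timp1 lie farthest to the right, above a change of 3.

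The genes with the greatest rise included members of the acute phase, the injured epithelium, matrix turnover, cell division and alternative activation. Saa3, a serum amyloid A protein made by macrophages and epithelium in inflammation, had log2 values of 9.70, 9.33, and 10.57 after O3, against 5.74, 5.97, 6.14, and 6.37 in air. Every O3 array lay above every air array by more than 2 on the log2 scale. The change was 3.81 ± 0.46 (SE), or 14.1-fold (adjusted p = 2.13e-05). Sprr1a, a precursor of the cornified envelope that squamous epithelium makes, read 9.33, 9.46, and 9.51 after O3, against 5.44, 6.39, 6.15, and 5.56 in air, a change of 3.54 ± 0.46. Timp1, a secreted inhibitor of matrix metalloproteinases, read 10.25, 10.44, and 10.69 after O3, against 7.08, 7.29, 7.58, and 7.36 in air, a change of 3.13 ± 0.60. The O3 arrays were tightly grouped at both genes. Retnla, a secreted protein of alternatively activated macrophages and of airway epithelium, read 12.92, 12.89, and 13.05 after O3, against 10.18, 10.56, 10.39, and 10.18 in air, a change of 2.62 ± 0.29. The plot of higher genes by array shows these values with no overlap between groups in any panel. The largest changes in either direction were named only where the groups did not overlap, so this adds no support.

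**Figure D2:**
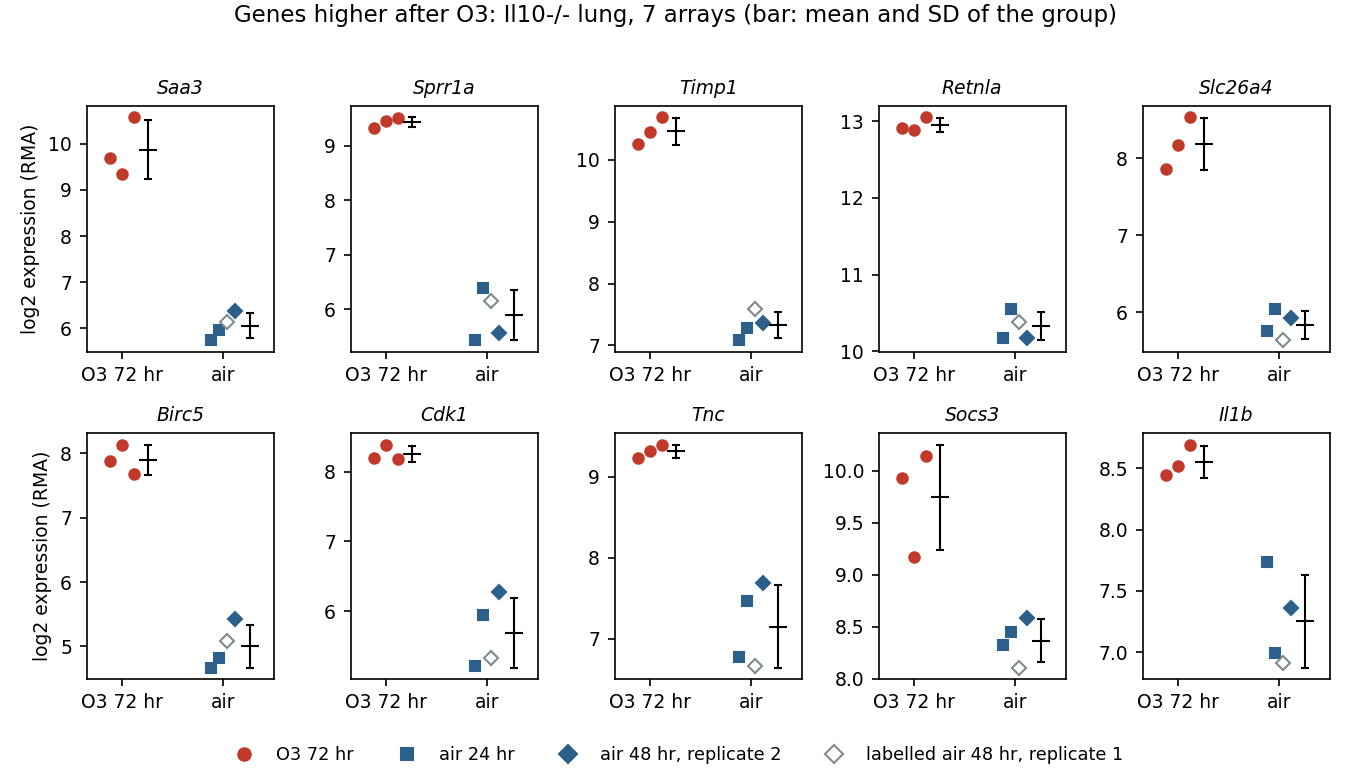
Log2 expression (y axis) of 10 genes that were higher after O3 on the 7 Il10-/- arrays, with the 3 O3 arrays left of the 4 air arrays in each panel; black bars give the mean and SD of each group. The open diamond is the library labelled air 48 hr replicate 1, and in every panel it lies below the 3 O3 arrays. The largest changes were named only where the groups did not overlap.

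Genes that injured and repairing lung epithelium switches on rose as a group while the markers of the mature epithelial types mostly did not pass. Of 17 measured genes of the injured and repairing epithelium, 13 were higher and none was lower, with a median change of 0.88, against -0.03 for all genes. Members of this list, as of the others, were chosen with earlier results of these data known, so the count is no independent test. Without the doubted air library 12 were higher. S100a14, a small calcium-binding protein of epithelia, read 7.73, 7.82, and 8.30 after O3, against 5.92, 6.21, 5.58, and 5.54 in air, a change of 2.13 ± 0.26. The keratins of simple epithelium rose too, with Krt8 at 11.97, 12.18, and 12.04 after O3, against 11.19, 11.04, 10.97, and 11.19 in air. The change of Krt8 was 0.96 ± 0.12 (adjusted p = 3.13e-05), that of its partner Krt18 was 1.05 ± 0.15 and that of Krt19 was 0.88 ± 0.17. Sfn, which encodes the 14-3-3 sigma protein of stressed epithelium, was higher by 1.15. Cldn4, a tight junction protein that seals injured alveolar epithelium, was higher by 1.07, and Tnfrsf12a, the receptor of the cytokine TWEAK, by 1.07. The secreted chaperone Clu was higher by 0.94, and Anxa1 and Lgals3, which act in the resolution of inflammation and in adhesion, by 0.76 and 0.68. Itgb6, Plaur, Krt6a and Ly6d did not pass, at 0.45, 0.11, -0.06, and -0.41. Cldn4 was the only 1 of 11 tight junction genes to pass.

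Few markers of the surfactant-producing alveolar type 2 cells passed. The surfactant protein gene Sftpc read 14.36, 14.32, and 14.45 after O3, against 14.38, 14.47, 14.33, and 14.35 in air, and the groups overlapped. Of 11 such markers only Muc1, a membrane mucin, was higher, by 0.47, and it did not pass without the doubted air library. Of 8 markers of alveolar type 1 cells, the thin cells of gas exchange, Cav1 was lower by 0.38, and Igfbp2 had a change of -0.95 that did not pass. Of 7 markers of ciliated cells, Tppp3, a tubulin-binding protein, was lower at 11.15, 11.07, and 11.14 after O3, against 11.97, 11.77, 12.09, and 11.81 in air. Its change was -0.79 ± 0.15 (adjusted p = 0.00307), and Foxj1, the regulator of ciliogenesis, had a change of -0.57 that did not pass. Of 10 club cell markers only Hp passed, at 0.32, and not without the doubted library. In whole lung, fewer cells of a type and less RNA per cell cannot be told apart.

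Airway secretory genes varied between arrays of 1 group. Of 14 of them, Slc26a4 and Pigr were higher. Slc26a4 encodes pendrin, an anion exchanger of inflamed airway epithelium, and read 7.86, 8.18, and 8.54 after O3, against 5.75, 6.04, 5.63, and 5.93 in air, a change of 2.35 ± 0.32. Pigr carries IgA across epithelium and was higher by 1.05, but not past the threshold without the doubted air library. Clca1, a marker of mucous cells, read 3.97, 4.16, and 8.75 after O3, against 4.42, 4.37, 4.48, and 4.55 in air. Replicate 3 of the O3 arrays thus stood alone. Bpifa1, an abundant secreted defense protein of large airways, read 11.04, 6.17, and 11.13 after O3, against 11.64, 9.36, 10.60, and 11.95 in air, with replicate 2 of the O3 arrays far below the rest. Neither gene passed.

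Genes of cell division made up the broadest group of changes. Of 40 measured genes of mitosis and chromosome segregation, 35 were higher and none was lower, with a median change of 1.35, and of 32 genes of DNA replication 24 were higher and none was lower, with a median change of 0.77. Without the doubted air library these counts were 33 and 22. With all 26 arrays in the fit no member of either list passed. The O3 and air arrays did not overlap, with O3 above, at 35 genes of mitosis and 29 of DNA replication, against 11.5% of all genes. Birc5 encodes survivin, a subunit of the chromosomal passenger complex, and read 7.88, 8.14, and 7.67 after O3, against 4.67, 4.82, 5.08, and 5.43 in air. The change of Birc5 was 2.90 ± 0.32, or 7.45-fold (adjusted p = 1.15e-05). Cdk1, the cyclin-dependent kinase of mitotic entry, read 8.20, 8.39, and 8.18 after O3, against 5.22, 5.94, 5.33, and 6.27 in air, a change of 2.56 ± 0.31. The O3 arrays lay within 0.5 of each other at Cdk1, and the air arrays spread over more than 1.

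The members that rose span the cell cycle. In S phase, Rrm2 and Rrm1, the subunits of ribonucleotide reductase that makes deoxynucleotides, were higher by 2.51 and 0.97, and thymidine kinase Tk1 by 1.81. Subunits of the MCM replicative helicase rose, with Mcm5 higher by 1.75, Mcm7 by 0.77, Mcm3 by 0.77 and Mcm4 by 0.74. Mcm6 read 8.59, 8.80, and 8.92 after O3, against 6.72, 6.85, 8.31, and 7.16 in air. The 8.31 is that of the doubted library, and Il10+/+ air arrays lay between 8.30 and 8.58 at this gene, which is on chromosome 1. Its change was 1.51, and 1.86 without that library. For mitosis, the cyclins Ccna2 and Ccnb2 were higher by 2.47 and 2.25, topoisomerase Top2a by 2.35, the anaphase-promoting complex activator Cdc20 by 2.13 and its ubiquitin-conjugating enzyme Ube2c by 2.08. Cep55, a midbody protein that completes cell separation, was higher by 2.41 (adjusted p = 4.51e-07), and Anln, a scaffold of the contractile ring, by 2.13. Mki67, the antigen by which dividing cells are stained, read 7.25, 7.96, and 8.56 after O3, against 5.60, 6.31, 5.95, and 6.39 in air, a change of 1.86 ± 0.31. Nek2, Ndc80, Foxm1, Cenpe and Pttg1 did not pass, with changes between -0.27 and 0.34. Genes that package new DNA followed the same direction, with 7 of 10 histone and chaperone genes higher, among them the histone chaperone Asf1b by 1.11 and the histone acetyltransferase Hat1 by 0.75. Of 15 p53 targets, which mark growth arrest, none passed in either direction, and Cdkn1a had a change of -0.26.

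The promoters of the mitotic genes hold letters that these genes are known to share. In human and mouse cells the CCAAT box, bound by NF-Y, and the cell cycle homology region (CHR), bound by the DREAM and MuvB complexes, act together at genes of G2 and mitosis. The window searched was 250 bases before to 50 after the gene start in RefSeq (GRCm38.p6), on either strand, with CCAAT for the box and TTTGAA or TTCGAA for the CHR; no motif contains another. Promoters were found for 35 of the 40 mitotic genes. Among their 37 promoters, 75.7% held CCAAT, 75.7% held a CHR and 67.6% held both, against 37.4%, 19.2%, and 7.5% of all 32851 promoters of this length. Among 33 promoters of 28 genes of DNA replication, 54.5% held CCAAT and 15.2% a CHR, and 27.3% held an E2F motif (TTTCCCGC or TTTGGCGC), against 1.6% of all promoters and 2.7% of the mitotic ones. A match is a description of the letters and not a bound site. Promoters of 4 cell division genes with great changes that hold both motifs are printed, 5′ to 3′ on the gene's strand, to let the spacing be read. They were not drawn from every chromosome, so a gene with a greater change may be left out. CCAAT or its complement ATTGG and the CHR or its complement TTCAAA are in capitals.
Cdk1 (chr10:69352863-69353162, minus strand): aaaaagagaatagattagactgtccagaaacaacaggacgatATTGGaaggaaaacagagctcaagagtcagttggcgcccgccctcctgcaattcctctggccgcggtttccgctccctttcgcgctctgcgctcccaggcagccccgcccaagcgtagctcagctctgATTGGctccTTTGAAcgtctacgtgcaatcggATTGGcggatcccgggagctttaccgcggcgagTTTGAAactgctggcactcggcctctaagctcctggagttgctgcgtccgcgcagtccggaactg
Top2a (chr11:99024140-99024439, minus strand): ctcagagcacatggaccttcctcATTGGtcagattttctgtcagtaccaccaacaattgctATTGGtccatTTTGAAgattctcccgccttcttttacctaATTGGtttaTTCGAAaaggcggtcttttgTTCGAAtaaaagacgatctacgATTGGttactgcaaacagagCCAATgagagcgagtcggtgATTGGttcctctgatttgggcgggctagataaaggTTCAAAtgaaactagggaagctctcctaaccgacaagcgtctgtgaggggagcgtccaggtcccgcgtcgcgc
Ccnb2 (chr9:70421505-70421804, minus strand): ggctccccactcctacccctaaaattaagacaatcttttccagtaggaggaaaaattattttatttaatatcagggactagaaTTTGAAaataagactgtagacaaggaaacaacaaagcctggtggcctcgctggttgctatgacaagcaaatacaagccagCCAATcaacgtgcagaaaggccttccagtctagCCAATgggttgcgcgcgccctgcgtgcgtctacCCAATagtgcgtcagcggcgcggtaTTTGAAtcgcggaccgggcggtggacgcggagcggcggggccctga
Cdc20 (chr4:118437294-118437593, minus strand): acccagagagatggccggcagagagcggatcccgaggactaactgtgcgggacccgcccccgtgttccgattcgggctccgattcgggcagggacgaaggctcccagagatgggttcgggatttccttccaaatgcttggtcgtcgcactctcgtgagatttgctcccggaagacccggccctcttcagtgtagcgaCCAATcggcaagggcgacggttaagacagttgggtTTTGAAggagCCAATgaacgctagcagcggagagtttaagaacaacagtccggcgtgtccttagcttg
The window of Cdk1 holds 3 CCAAT boxes and 2 CHR matches, that of Top2a 6 and 4, that of Ccnb2 3 and 2 and that of Cdc20 2 and 1.

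**Figure D3:**
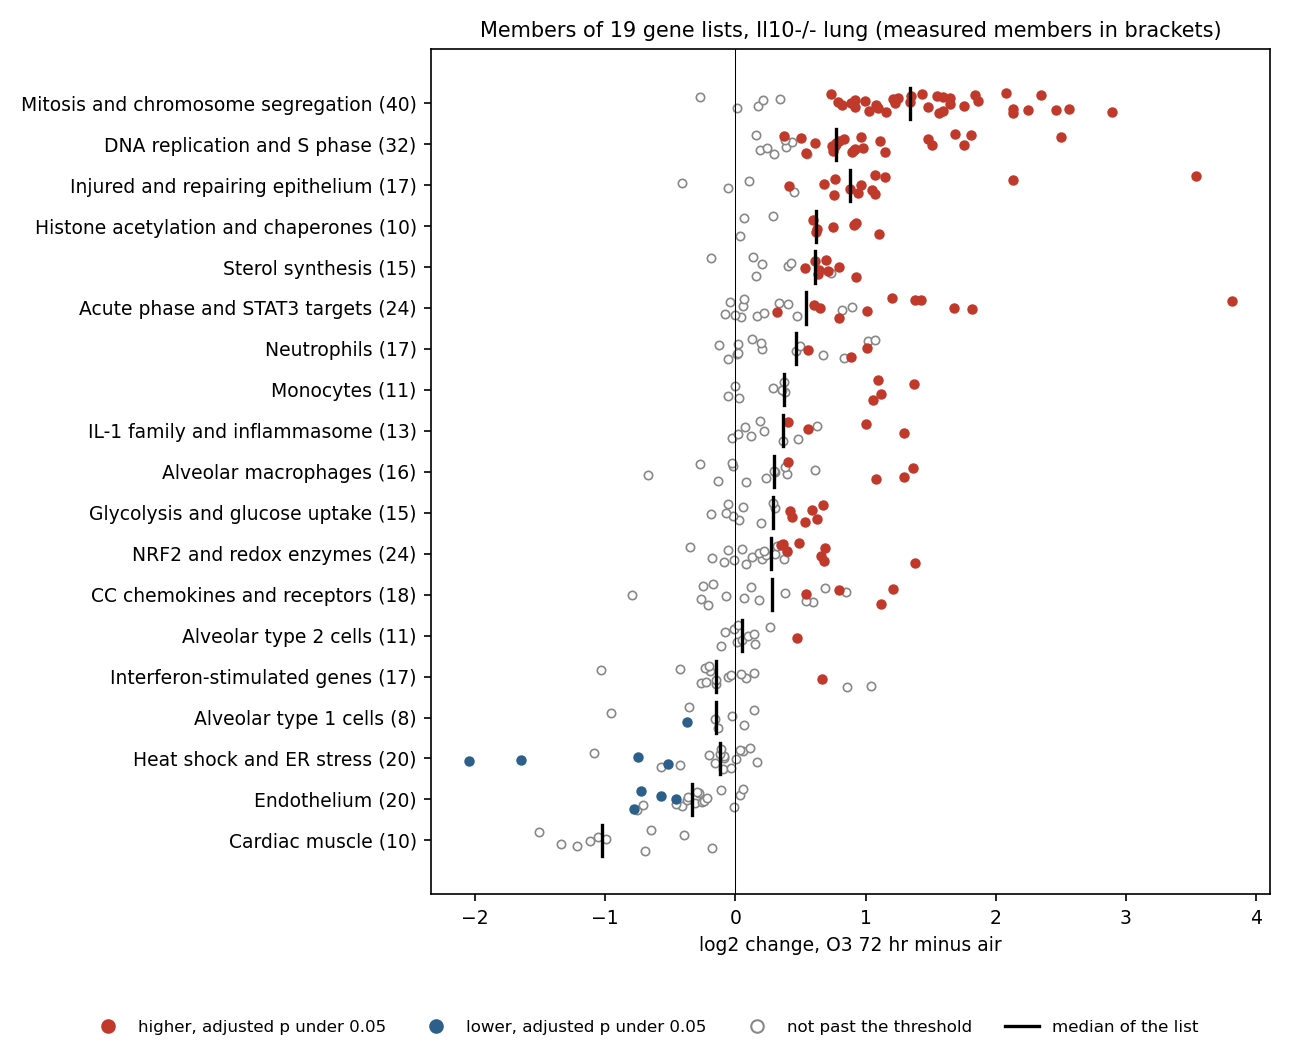
Log2 change, O3 for 72 hr minus air in Il10-/- lungs (x axis), of the measured members of 19 gene lists (rows), each point a gene; red and blue points passed the test, open points did not and the black line is the median of the list. The medians run between 1.35 for mitosis at the top and -1.03 for cardiac muscle at the bottom, where no gene passed.

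Acute phase genes and targets of STAT3 rose in part. Of 24 such genes 11 were higher and none was lower, with a median of 0.54; without the doubted air library 10 were higher, and with all 26 arrays 2. Lcn2, which binds the iron carriers of bacteria, read 11.37, 11.31, and 12.09 after O3, against 9.75, 9.91, 9.78, and 9.65 in air, a change of 1.82 ± 0.21. Lrg1, a secreted glycoprotein that alters TGF-beta signaling in vessels, read 11.46, 11.51, and 11.47 after O3, against 9.69, 9.87, 10.05, and 9.60 in air, a change of 1.68 ± 0.25. The protease inhibitor Serpina3n was higher by 1.43 and the metalloreductase Steap4 by 1.20. Every O3 array lay above every air array at these genes. Among the cytokines of this axis, Il6 read 4.59, 5.30, and 5.51 after O3, against 4.19, 4.00, 4.19, and 4.10 in air, a change of 1.01 ± 0.23, Lif was higher by 0.65 and the oncostatin M receptor Osmr by 0.60. Orm1 and Itih4 had changes of 0.89 and 0.82 that did not pass, and the fibrinogen chains Fga, Fgb and Fgg lay between -0.08 and 0.22. Stat3 itself was at 11.44, 10.95, and 11.47 after O3, against 11.18, 11.64, 10.94, and 11.11 in air, with overlap.

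Of 9 genes of the IL-10 receptor and its signaling, only Socs3 passed. Socs3, the feedback inhibitor of STAT3 signaling by the IL-6 receptor family, read 9.93, 9.18, and 10.14 after O3, against 8.33, 8.45, 8.11, and 8.58 in air. Its change was 1.38 ± 0.24, or 2.6-fold (adjusted p = 0.000839), and its 3 probe sets were all higher, by 1.38, 0.88, and 1.32. The receptor chains Il10ra and Il10rb had changes of -0.02 and 0.13, and Jak1 and Tyk2, the kinases on those chains, -0.11 and -0.28.

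Macrophage and monocyte genes rose in part. Of 16 markers of alveolar macrophages 4 were higher: the matrix proteases Mmp12, by 1.36, and Ctsk, by 1.30, the lysosomal glycoprotein Cd68, by 1.08, and the lipid receptor Trem2, by 0.40. Cd68 averaged 9.86 ± 0.13 after O3 (SD, n = 3), against 8.78 ± 0.05 in air (SD, n = 4), with no overlap. The scavenger receptor Marco, a defining marker, had a change of 0.61 that did not pass, Siglecf was at -0.03 and Pparg at -0.27. Of 11 markers of monocytes 4 were higher, the membrane protein Ms4a6d by 1.37, coagulation factor F10 by 1.12, the proteoglycan Vcan by 1.10 and the endotoxin co-receptor Cd14 by 1.06, and the colony stimulating factor receptor Csf1r and lysozyme Lyz2 were at 0.03 and -0.01. Ms4a6d read 7.01, 7.07, and 7.14 after O3, against 5.57, 5.39, 6.05, and 5.79 in air. All counts of both lists were the same without the doubted library. Of 11 genes of alternative activation Retnla and the IL-4 receptor Il4ra were higher. Chil1, a chitinase-like protein, read 11.12, 10.93, and 11.48 after O3, against 9.45, 9.78, 12.23, and 9.55 in air, where the 12.23 is that of the doubted library and Il10+/+ air arrays lay between 12.12 and 12.38. Chil1 had a change of 0.92 that did not pass, and one of 1.58 without that library (adjusted p = 2.39e-05).

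The most abundant neutrophil transcripts overlapped between O3 and air. S100a8, an abundant calcium-binding protein of neutrophils, read 10.90, 10.38, and 11.41 after O3, against 10.77, 10.27, 8.97, and 9.52 in air, and S100a9, its partner, read 11.48, 10.97, and 12.05 after O3, against 11.33, 10.96, 9.30, and 10.13 in air. The air arrays of 24 hr were higher than those of 48 hr at both genes, and neither passed, at 1.02 and 1.07. Of 17 neutrophil markers 3 were higher, the collagenase Mmp8 by 1.01, the receptor Clec4e by 0.89 and the decoy receptor Il1r2 by 0.56, and without the doubted library only Clec4e was. Elane, Mpo, Camp and Ngp, granule genes of immature neutrophils, lay between -0.13 and 0.02. None of 8 neutrophil chemokines and growth factors passed: Cxcl1 was at 0.54, Cxcl5 at 0.41 and Cxcl2, which encodes MIP-2, at 0.25. Cxcl2 had a mean of 4.36 over all arrays, a low signal at which RMA compresses changes. Il6, with a mean of 4.59, and Clec4e, with 4.87, were also low in signal. The mean log2 level of B cell markers ranged between 6.20 and 7.08 after O3, against 6.03 and 7.13 in air, that of T cell markers between 5.91 and 6.38, against 5.91 and 6.40, and that of NK and cytotoxic cell markers between 5.86 and 6.36, against 6.34 and 6.92. None of 12, 13 and 10 genes on these lists passed, and all 10 of the NK list had changes below 0. No mast cell, eosinophil or basophil marker passed of 11.

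Of the IL-1 family 4 of 13 genes were higher, and 2 were without the doubted library. Il1b read 8.44, 8.52, and 8.69 after O3, against 7.74, 6.99, 6.91, and 7.36 in air, a change of 1.30 ± 0.26 (adjusted p = 0.00403). Il33, an alarmin that epithelium releases on injury, read 10.70, 10.54, and 10.81 after O3, against 9.49, 9.47, 9.80, and 9.97 in air, a change of 1.00 ± 0.20. The groups did not overlap at either gene. Il1r2 and the adaptor Myd88 were higher by 0.56 and 0.40, and Il1a was at 0.02. Il1rn had a change of 0.63 on its brightest probe set, which did not pass. Another Il1rn probe set was higher by 1.08 (limma over all probe sets, adjusted p = 0.0109), and its dimmest was at 0.25 and did not pass. Of 18 CC chemokines and receptors 4 were higher with and without the doubted library. The receptor Ccr1 read 7.06, 7.33, and 7.74 after O3, against 6.40, 6.41, 5.79, and 6.07 in air, a change of 1.21 ± 0.19, and Ccl17, a ligand that draws Th2 cells, was higher by 1.12. The other 2 were Ccl9 and Ccl6, myeloid chemokines found in rodents, at 0.80 and 0.55. Ccl2, the main monocyte chemokine, had a change of 0.60 that did not pass.

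Some genes of NF-kB and few of interferons and antigen presentation passed. Of 14 genes of NF-kB the inhibitor Nfkbie and the adhesion molecule Icam1 were higher, by 0.64 and 0.39, and Traf1 was lower, by 0.52. Only Nfkbie passed without the doubted library. Tnf read 5.34, 5.38, and 5.25 after O3, against 5.28, 5.83, 5.40, and 5.36 in air, and Nos2 read 4.70, 4.92, and 4.52 after O3, against 4.96, 4.52, 4.55, and 4.86 in air. Both overlapped. Of 17 interferon-stimulated genes only Ifit3 passed, at 0.67, and not without the doubted library (5.87% of all genes passed). Cxcl9, an interferon-gamma target, read 4.88, 4.68, and 8.01 after O3, against 4.64, 5.15, 4.74, and 4.73 in air, so that O3 replicate 3 stood alone. Of 13 genes of MHC class II presentation the invariant chain protease Ctss was higher, by 0.58, and Cd74 was at -0.11. Cd86 was at -0.01 on its brighter probe set. The other Cd86 probe set was at 0.46 and did not pass (limma over all probe sets, adjusted p = 0.146). Of 9 complement genes Cfb was higher, by 0.69, but not without the doubted library.

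Matrix and clotting genes rose at a few members. Besides Timp1, Mmp12 and Mmp8, the aggrecanase Adamts4 was higher by 0.97 and Timp2 was lower by 0.31 among 15 metalloproteinases and their inhibitors. Without the doubted library Adamts4 and Mmp8 did not pass, which left 2 higher and 1 lower. Tnc, which encodes tenascin C, a protein of the provisional matrix of wounds, read 9.23, 9.32, and 9.40 after O3, against 6.78, 7.47, 6.66, and 7.69 in air, a change of 2.16 ± 0.47 (adjusted p = 0.0078). The air arrays spread over 1 at Tnc and the O3 arrays lay close together. Fibronectin Fn1 was higher by 0.59, but not without the doubted library. Of 19 genes of collagens and matrix the fibrillar collagens Col1a1, Col1a2 and Col3a1 did not pass, with changes of -0.03, -0.07, and 0.06. Of 13 genes of coagulation 5 were higher and 1 was lower, with and without the doubted library. Tissue factor F3, which starts clotting, read 8.47, 8.44, and 9.15 after O3, against 7.25, 7.24, 7.10, and 7.65 in air, a change of 1.38 ± 0.21. Its partner F7 was higher by 0.79, F10 by 1.12, thrombospondin Thbs1 by 1.06 and the cross-linking enzyme subunit F13a1 by 0.90, while the anticoagulant receptor Thbd was lower by 0.39.

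Some redox and metabolic enzymes were higher after O3. Of 24 genes of NRF2 and redox defense 8 were higher and none was lower, with a median of 0.27, and without the doubted library 5 were higher. Akr1b8, an aldo-keto reductase that clears reactive aldehydes, read 9.21, 9.41, and 9.24 after O3, against 7.82, 7.92, 7.93, and 7.95 in air. Its change was 1.38 ± 0.15 (adjusted p = 7.07e-06), with both groups within narrow ranges. Superoxide dismutase Sod2 was higher by 0.69, glutathione reductase Gsr by 0.66 and thioredoxin reductase Txnrd1 by 0.49. The best known NRF2 targets Nqo1 and Hmox1 did not pass, at 0.39 and 0.24, and of 18 glutathione S-transferases only Mgst3 passed, at 0.78, and not without the doubted library. Of 15 enzymes of sterol synthesis 8 were higher, with a median of 0.61, led by the demethylase Cyp51 at 0.93 and the oxidase Msmo1 at 0.79. Only 1 of them, squalene epoxidase Sqle, passed without the doubted library, and the median was then 0.56. Ch25h, which makes 25-hydroxycholesterol, read 7.26, 7.40, and 8.61 after O3, against 5.95, 6.40, 6.06, and 6.32 in air, a change of 1.58 ± 0.27, and Cyp7b1, which clears that oxysterol, was higher by 1.24. Targets of the sterol sensor LXR did not pass, with Abca1 at -0.18 and Abcg1 at -0.19. Of 15 genes of glycolysis 6 were higher, among them the glucose transporter Slc2a1 at 0.67 and Pgk1 at 0.59, and 2, Pgk1 and Gapdh, were without the doubted library.

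Fewer genes were lower than higher after O3. Igfbp3, which binds insulin-like growth factors, read 6.84, 6.96, and 6.72 after O3, against 8.87, 8.54, 9.33, and 9.25 in air. Its change was -2.16 ± 0.26, or 4.47-fold lower (adjusted p = 1.85e-05), and the groups were apart by more than 1.5. The other 10 measured members of the IGF axis did not pass, with Igf1 at -0.05, Igf1r at -0.38 and Igfbp5 at -0.09. Acaa1b, a peroxisomal thiolase, was lower by 1.39, the matrix protein Thbs3 by 1.37 and Cdh13, a cadherin that binds adiponectin, by 1.09. Hey1, a target of Notch signaling, was lower by 0.90. Tril, Gprasp1, Scube2, Fibin and Ptgfr were lower by 0.88 to 1.12, and Scube2 and Ptgfr did not pass without the doubted library.

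A few heat shock genes were lower after O3. Hspa1a, an inducible HSP70 chaperone, read 8.85, 9.49, and 8.17 after O3, against 10.39, 10.50, 10.53, and 12.09 in air, where air 48 hr replicate 2 stood above the other 3. Hspa1b, its near-identical copy, read 10.38, 10.94, and 9.73 after O3, against 11.47, 12.35, 11.39, and 12.78 in air. Their changes were -2.05 ± 0.51 and -1.65 ± 0.43, and the array may not tell the copies apart. The small heat shock protein Hspb1 was lower by 0.75 and Herpud1, of the endoplasmic reticulum, by 0.52. Of 20 genes of heat shock and protein folding these 4 were lower and 6 were without the doubted library, and Hspa5, Hspa8 and Hsp90aa1 did not pass, at 0.00, -0.08, and -0.16.

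Of 12 glucocorticoid targets 1 was higher, Lcn2, and 2 were lower, Tsc22d3 and Angptl4, and of 16 clock genes 2 were lower, Cry2, by 0.63, and Per1. Klf15, a transcription factor that glucocorticoids induce, read 8.29, 8.59, and 7.88 after O3, against 9.29, 9.34, 9.52, and 10.01 in air, a change of -1.29 ± 0.26, with no overlap. The clock gene Per1 read 7.08, 7.68, and 7.11 after O3, against 7.43 and 7.97 in air of 24 hr and 9.46 and 9.83 in air of 48 hr. Its change was -1.38 ± 0.40, and the O3 arrays overlapped the air arrays of 24 hr. Tsc22d3, the anti-inflammatory protein GILZ, read 10.13, 10.46, and 9.74 after O3, against 10.51 and 10.58 in air of 24 hr and 11.21 and 11.67 in air of 48 hr. Per1, Tsc22d3 and Angptl4 were thus nearer to O3 on the air arrays of 24 hr, and none of the 3 passed without the doubted library. Without that library 1 of the 12 glucocorticoid targets was higher and 1 was lower. Fkbp5 and Sgk1, other glucocorticoid targets, were at 0.02 and 0.07. The labels give no hour of sampling.

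Of 20 endothelial markers 4 were lower and none was higher, with a median of -0.34, and only 1, the adhesion molecule Pecam1, was lower without the doubted library. Pecam1 read 10.89, 10.76, and 10.92 after O3, against 11.38, 11.38, 11.27, and 11.22 in air, a change of -0.45 ± 0.09 (adjusted p = 0.00334). The apelin receptor Aplnr was lower by 0.78, the receptor kinase Tie1 by 0.73 and the guidance receptor Robo4 by 0.57, while Vwf and Cdh5 were at 0.06 and -0.41. The mean log2 of 10 cardiac muscle genes, which mark the walls of pulmonary veins and the heart, was 6.95, 6.87, and 7.94 after O3, against 8.00, 7.87, 8.66, and 8.16 in air. All 10 had changes below 0, with a median of -1.03, and none passed. That of 6 adipose genes was 4.79 to 5.20 after O3, against 5.27 to 5.40 in air, and red blood cell genes had a median of -0.49. Their part in the endothelial values was not tested.

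**Figure D4:**
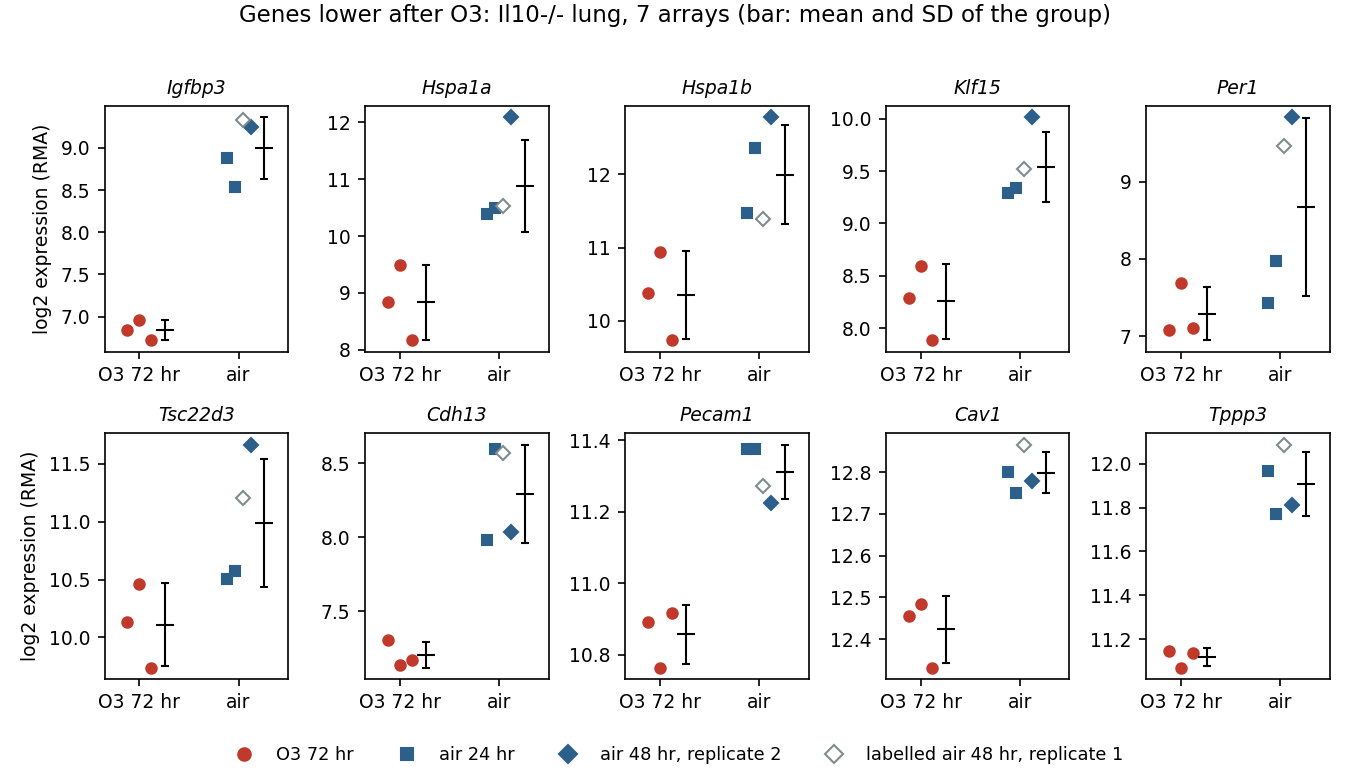
Log2 expression (y axis) of 10 genes that were lower after O3 on the 7 Il10-/- arrays, with the 3 O3 arrays left of the 4 air arrays in each panel; black bars give the mean and SD of each group. Igfbp3 and Klf15 separate the groups, Hspa1a has 1 high air array at 12.09 and Per1 and Tsc22d3 are higher on the air arrays of 48 hr than on those of 24 hr.

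Whether the 72-hr change was particular to mice without IL-10 was asked with the difference between the genotypes' changes, each against its own air. No gene passed, and no gene passed in the other fits except 1 with array weights. An unadjusted limma p under 0.05 was found for 309 of 12394 genes, a share below the 0.05 that chance alone gives. In Il10+/+ mice 306 genes were higher (2.47% of genes tested) and 85 lower (0.686%), 3.15% in all. Saa3 was higher by 3.81 in Il10-/- mice and by 1.74 in Il10+/+ mice, a difference of 2.07 with a 95% interval of 0.73 to 3.42, which did not pass after adjustment. Il1b was higher by 1.30 in Il10-/- mice and had a change of 0.66 in Il10+/+ mice that did not pass, a difference of 0.64 (-0.13 to 1.40). Lcn2 had changes of 1.82 in Il10-/- and 1.13 in Il10+/+ mice (difference 0.69, 0.07 to 1.30). Hspa1a, lower by 2.05 in Il10-/- mice, had a change of 0.68 in Il10+/+ mice, a difference of -2.73 (-4.24 to -1.21). These intervals are unadjusted and leave room for differences of well over 2-fold. Of the cell cycle, Birc5 had changes of 2.90 in Il10-/- and 2.65 in Il10+/+ mice (difference 0.25, -0.69 to 1.20). Mki67 had changes of 1.86 and 2.35 in the same order (-0.49, -1.41 to 0.43). Both intervals included 0, and those of other cell cycle genes are not given here. Sprr1a had changes of 3.54 in Il10-/- and 3.40 in Il10+/+ mice (0.14, -1.21 to 1.49), and Retnla of 2.62 and 2.57 (0.05, -0.80 to 0.91). Mitosis had a median change of 1.35 in Il10-/- and of 1.61 in Il10+/+ mice, the injured epithelium of 0.88 and 0.93 and the acute phase of 0.54 and 0.43. Neutrophil markers had a median of 0.46 in Il10-/- mice, where 3 of 17 passed, and of -0.14 in Il10+/+ mice, where none did. Without the doubted air library 1 of the 17 passed in Il10-/- mice. Differences between these medians of lists were not tested.

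Between 72 and 48 hr of O3 in Il10-/- mice no gene passed either, and 1 passed without O3 48 hr replicate 1. Here 329 of 12394 genes had an unadjusted limma p under 0.05, again a share below 0.05. The air arrays are the same for both times, so the changes are given side by side. Against that air, 527 genes rose and 201 fell at 72 hr, while 501 rose (4.04% of genes tested) and 284 fell (2.29%) at 48 hr, 6.33% in all. Acute phase genes had a median change of 0.54 at 72 hr and of 0.73 at 48 hr, with 11 and 16 of 24 higher. Orm1 had a change of 0.89 at 72 hr and 2.26 at 48 hr, a direct difference of -1.37 (95% interval, -2.19 to -0.55). Saa3 had changes of 3.81 at 72 hr and 4.43 at 48 hr (-0.62, -1.63 to 0.40), Mki67 of 1.86 and 2.79 (-0.93, -1.62 to -0.24) and Cdk1 of 2.56 and 2.68 (-0.12, -0.81 to 0.58). In the other direction, Cd68 had a change of 1.08 at 72 hr and 0.34 at 48 hr (0.74, 0.19 to 1.29), and F13a1 of 0.90 and 0.06 (0.84, 0.26 to 1.42). The intervals are not adjusted for the number of genes.

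**Figure D5:**
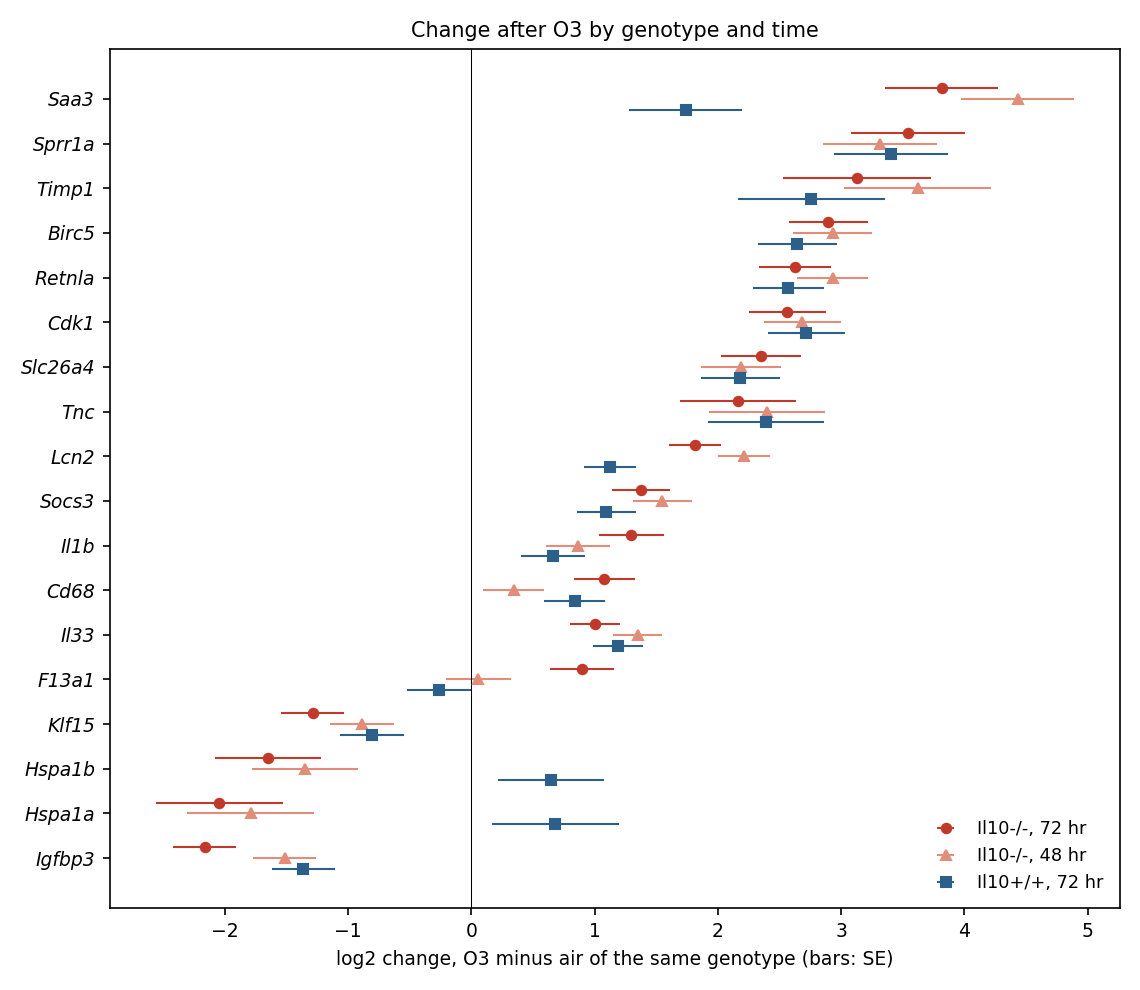
Log2 change of 18 genes, O3 minus air of the same genotype (x axis), with bars of 1 SE: red circles, Il10-/- at 72 hr; light red triangles, Il10-/- at 48 hr; blue squares, Il10+/+ at 72 hr. Hspa1a and Hspa1b lie left of 0 in Il10-/- and right of 0 in Il10+/+ mice, and no difference between the genotypes passed the threshold.

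Across all genes (genes are no replicates), Pearson's r was 0.9913 to 0.994 among O3 arrays, 0.9889 to 0.996 among air arrays and 0.982 to 0.9901 between an O3 and an air array.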

How the data were processed

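The authors summarised the array scans with Robust Multichip Average (RMA, in RMAExpress) and deposited log2 values per probe set, used here as deposited; RMA compresses changes at low signal. Of 22690 probe sets, 20393 had 1 gene symbol in the platform annotation, and each of 12394 genes was read from its brightest probe set on average. limma 3.58.1 in R 4.3.3 fitted a mean for each of 8 arms (with 1 air arm per genotype) to 25 arrays. Il10-/- O3 24 hr replicate 2, which is not compared here, was left out: the study's methods drop an outlier of that group, and earlier results of these data were used to say which. Moderated tests were adjusted by Benjamini-Hochberg over all genes, with a threshold of 0.05, and the fit was tested on simulated data. Named genes were the 15 largest non-overlapping changes in each direction, up to 4 called members of each list and genes the study names; list members that did not pass are named with their values. The members and the 48 lists were chosen with earlier results of these data known. Alternatives covered the arrays fitted, array weights, the air time, probe set choice, centring, a filter on low genes, a letter c that ends some source names and a replicate block. The number of arrays limits the precision. Python 3.11.15, pandas 2.3.3 and matplotlib 3.10.9 drew the tables and figures.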

Additional observations from a re-analysis of the deposited data

Results flagged for a closer look

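Among 122 genes examined for an air array far from the other 3, 4 had one, where chance marks about 1 group in 20. Il10 was 3.87 and Robo4 was 8.72 in the library labelled air 48 hr replicate 1, Hspa1a was 12.09 in air 48 hr replicate 2 and Serpina3n was 8.93 in air 24 hr replicate 2.

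At 3 genes every O3 array of Il10-/- mice lay on one side of its air mean and every O3 array of Il10+/+ mice on the other. The difference between the genotypes' changes, Il10-/- minus Il10+/+, was 1.16 for F13a1, -2.29 for Hspa1b and 0.36 for Nnt, and none passed limma's test of that difference after adjustment. The Il10-/- air mean of Nnt includes the doubted air library, at 7.66, against 8.53 to 9.18 on the other Il10-/- arrays. Without that library the change of Nnt in Il10-/- mice was negative.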

How the results depend on the processing

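The counts of 527 higher and 201 lower genes became 107 and 10 with a 2-fold minimum, 40 and 7 with all 26 arrays, 20 and 3 with all 26 less the doubted air library (chosen after seeing the data), 1019 and 651 with array weights, 770 and 394 with the letter c as a covariate, 240 and 77 with only air of 24 hr and 252 and 61 with only air of 48 hr. Leaving out 1 array gave 237 to 485 higher and 36 to 193 lower genes. The share of called genes that were higher was 72.4%, and 65.2% with median centring; over all settings but the 2-fold minimum it ran between 61.0% (array weights) and 87.0% (all 26 arrays less the doubted library). The genotype difference called 1 gene with array weights, and 72 against 48 hr called 0 to 1 with 1 array left out. Same-numbered arrays had deviations that correlated between -0.0831 and 0.21, so the number was not taken as a pairing; a replicate block gave 602 and 235. Of 110 named genes that passed, none reversed, and between 12 (26 arrays less the doubted library) and 110 (array weights) still passed. Only values near 0 in the main fit turned sign, and some of them lay well away from 0 in other fits. Nnt, Pam and Wdfy1 had their lowest values without the doubted air library. With 26 arrays less the doubted library Cd86 was 0.018, Nnt -0.15, Pam -0.30, Stat3 -0.026 and Wdfy1 -0.14. With only air of 24 hr Nnt was -0.055, Pam -0.22, Stat3 -0.13 and Wdfy1 -0.059, and with only air of 48 hr Cd86 was 0.11, Il1a -0.0089 and Nos2 0.012. Cd86 was 0.22 with probe sets averaged, and 0.019 with the replicate block, where Nos2 was 0.031. With the letter c Nos2 was 0.18 and Stat3 -0.23. With 1 array left out Cd86 ranged between -0.12 and 0.095, Il1a -0.035 and 0.049, Nnt -0.15 and 0.36, Nos2 -0.11 and 0.090, Pam -0.30 and 0.35, Stat3 -0.027 and 0.24, and Wdfy1 -0.14 and 0.37. The genotype difference of Retnla was -0.026 with array weights and ranged between -0.13 and 0.16, and that of Sprr1a between -0.027 and 0.40. The causes were not tested.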
